A study of Mus musculus with 16 samples.

Results

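Sulfur amino acid metabolism was followed through 10 genes, chosen by name as the enzymes that carry methionine to cysteine, taurine and sulfide. They are Mat1a, Mat2a, Gnmt, Ahcy, Bhmt, Cbs, Cth, Cdo1, Csad and Mpst, and all 10 were found once each among the 25054 gene entries of the series. RNA came from lung and liver of newborn C57BL/6J pups, born to Man1a2 heterozygous parents fed N-acetyl cysteine (NAC, 1 g/kg body weight) or placebo (water) from the week before breeding until delivery. Pups were watched every 8 h for 24 h, and tissue was taken at death or at 24 h. Of the 4 pup groups, the live ones were wild type (WT) or heterozygous and the dead ones heterozygous or null. Null pups carry the Man1a2 deletion on both copies and heterozygous pups on a single copy. RNA of 3 experiments (2 for dead heterozygous pups) was pooled into 1 library per pup group, treatment and tissue label, 16 libraries in all, so that the libraries and not single pups are the units compared. The targeted gene, Man1a2, had between 29.7 and 75.4 CPM (counts per 1000000 counts) in them, and its gene counts do not separate the deleted exon from the others.

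Methionine is activated to S-adenosylmethionine by methionine adenosyltransferases, of which Mat1a encodes the form of adult liver and Mat2a the form of most other tissues. Methyltransferases such as Gnmt spend it, Ahcy splits the product to homocysteine, and Bhmt returns homocysteine to methionine with betaine as the methyl donor. Cbs and Cth carry homocysteine on to cysteine, which Cdo1 and Csad turn into taurine precursors and Mpst into sulfide. NAC is itself a source of cysteine. Much of this traffic takes place in hepatocytes.

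Marker genes did not follow the tissue labels, so libraries were grouped by content. A library was called lung-content with at least 1000 raw CPM of Sftpc, the surfactant protein C gene of alveolar epithelium, and under 1000 of Alb (albumin), and liver-content with at least 50000 CPM of Alb. Of the 16 libraries, 8 were liver-content (4 labelled lung and 4 labelled liver), 7 were lung-content (3 labelled lung and 4 labelled liver) and 1, dead null placebo labelled lung, was mixed, with 5553 CPM of Sftpc and 9280 of Alb. In all, 8 libraries carried the label of the other tissue. Liver-content libraries had at most 3.10 CPM of Sftpc, and lung-content libraries between 10.5 and 135 CPM of Alb. Pup group and treatment were taken from the labels throughout, and whether these are also exchanged was not tested. Libraries held between 7236865 and 16107749 counts, and the ribosomal RNA symbol Rn45s took 0.845% to 26.2% of them. Within a content the libraries were not equally alike. Over 11571 genes, the Pearson correlation of the live WT NAC with the live WT placebo library was 0.943 among liver-content libraries, and 0.972 for both the live heterozygous and the dead heterozygous pair. The dead null NAC libraries labelled lung and liver, both liver-content and of the same pup group and treatment, correlated at 0.893. The one labelled liver correlated at 0.992 with live heterozygous placebo, so likeness among liver-content libraries did not follow pup group and treatment. Among lung-content libraries the NAC and placebo pairs correlated at 0.951 (live WT), 0.918 (live heterozygous) and 0.947 (dead heterozygous). The placebo libraries of these pairs correlated at 0.987 to 0.989 with one another, and the NAC libraries at 0.963 to 0.976. Dead null placebo correlated at 0.981, 0.956 and 0.971 with the NAC libraries of live WT, live heterozygous and dead heterozygous pups. With their placebo libraries it stood at 0.968, 0.960 and 0.964.

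The stretches before the starts of Mat2a, Bhmt and Gnmt are shown because Mat2a was at like levels in both contents, Bhmt had the widest gap between them, and Gnmt had the largest change with NAC among the 10 in lung-content libraries. They are the 250 bases before the RefSeq start on the minus strand (GRCm38.p6), written 5′ to 3′ with each CG dinucleotide in capitals, at chr6:72439557-72439806 for Mat2a, chr13:93637759-93638008 for Bhmt and chr17:46729166-46729415 for Gnmt.
Mat2a: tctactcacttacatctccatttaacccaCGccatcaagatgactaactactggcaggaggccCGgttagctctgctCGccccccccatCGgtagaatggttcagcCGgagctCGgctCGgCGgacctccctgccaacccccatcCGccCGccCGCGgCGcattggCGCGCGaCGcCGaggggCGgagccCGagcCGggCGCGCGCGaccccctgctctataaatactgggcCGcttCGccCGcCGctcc
Bhmt: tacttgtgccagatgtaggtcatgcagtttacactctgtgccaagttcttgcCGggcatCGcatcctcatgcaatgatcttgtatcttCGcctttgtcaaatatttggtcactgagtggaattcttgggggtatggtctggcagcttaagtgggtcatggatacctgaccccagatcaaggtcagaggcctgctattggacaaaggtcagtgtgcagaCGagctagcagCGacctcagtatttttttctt
Gnmt: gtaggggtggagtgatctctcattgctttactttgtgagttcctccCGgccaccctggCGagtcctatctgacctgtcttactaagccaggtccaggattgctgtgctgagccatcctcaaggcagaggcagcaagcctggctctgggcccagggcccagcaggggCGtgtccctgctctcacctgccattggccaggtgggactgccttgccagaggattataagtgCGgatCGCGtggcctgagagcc
The Mat2a stretch held 29 CG dinucleotides at 67.6% G and C, against 5 and 48% for Bhmt and 6 and 60.4% for Gnmt. The median over the 32851 promoters was 6 CG dinucleotides and 52.4% G and C, and 94.1% of promoters had as many as Mat2a or fewer. Entries were matched for 7 of the 10 genes (Mat2a, Gnmt, Ahcy, Bhmt, Cbs, Csad and Mpst). In their windows of 250 bases before and 50 after the start, searched on both strands, neither the HNF1 motif GTTAAT, found in 7.10% of all promoters, nor the C/EBP site TTGCNNAA, found in 10.8%, was present. The antioxidant response core TGACNNNGC, found in 12.4% of promoters, occurred once, as TGACATGGC in 1 of the 3 Mpst promoters. The absence of a match says only that these letters are not in the window.

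The 10 genes were mostly liver genes at this age. In 9 of them every liver-content library lay above every lung-content library on the TMM-scaled CPM used for levels from here on, and Mat2a overlapped. The same order held for 26.3% of the 14175 genes tested, and the reverse for 23.6%. On raw CPM it held for 8 of the 10, since Mpst overlapped, and for 13% of all genes, and the reverse for 36.8%. The median log2(CPM + 1) difference of liver-content minus lung-content over all genes was 0.07 on TMM-scaled and -0.53 on raw CPM. These are descriptions without a test, because the contents were themselves cut from measured genes. In bulk tissue, fewer cells of a type and less RNA per cell cannot be told apart.

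**Figure D1:**
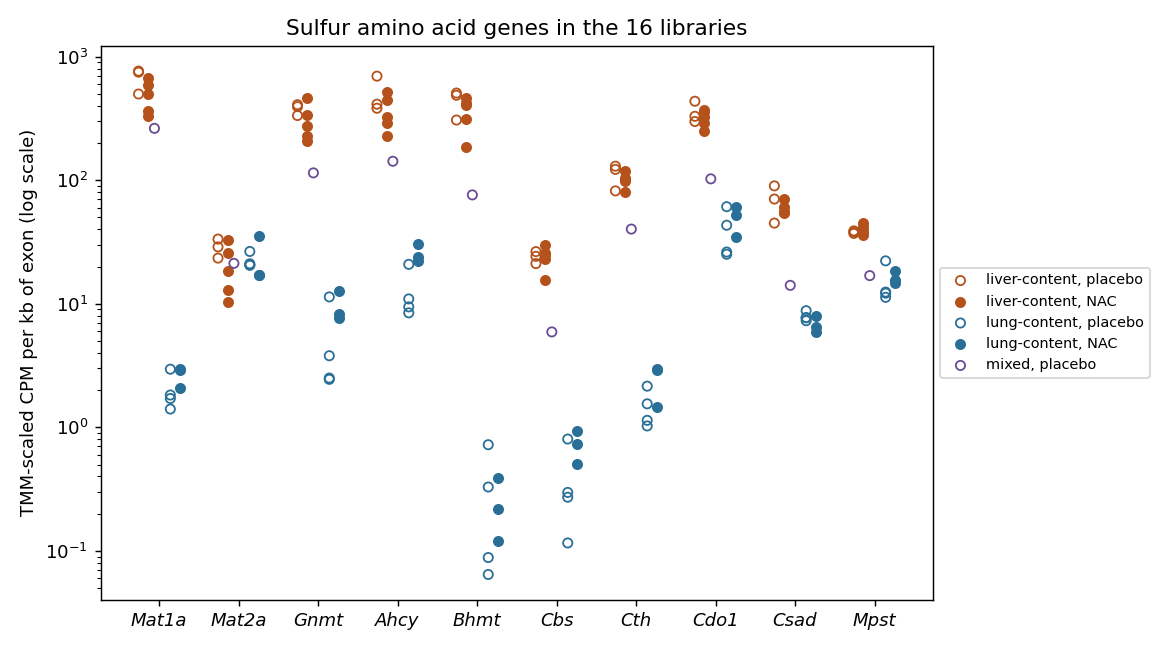
Level of each gene in the 16 libraries, in TMM-scaled CPM per kb of exon on a log axis, by content (colour) and treatment (filled for NAC, open for placebo). Each point is 1 library, and only Mat2a has liver-content and lung-content points that overlap.

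Methionine adenosyltransferases came first in the pathway and differed most plainly from each other. Mat1a (chromosome 14, 41105035 to 41124412) ranged from 1139 to 2648 CPM with a median of 1894 in liver-content libraries, and from 4.87 to 10.3 with a median of 7.24 in lung-content libraries. Mat2a (chromosome 6, 72432799 to 72439558) ranged from 46.1 to 150 CPM with a median of 111 in liver-content libraries, and from 76.4 to 157 with a median of 92.4 in lung-content libraries. The direction of the Mat2a medians depended on the scaling, with a log2 ratio of liver over lung of 0.26 on TMM-scaled and -0.46 on raw CPM. Per kb of exon, Mat1a stood 14.9 to 35.2 times above Mat2a in liver-content libraries, and Mat2a stood 5.88 to 15.5 times above Mat1a in lung-content libraries. The mixed library had 12.4 times more Mat1a than Mat2a.

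**Figure D2:**
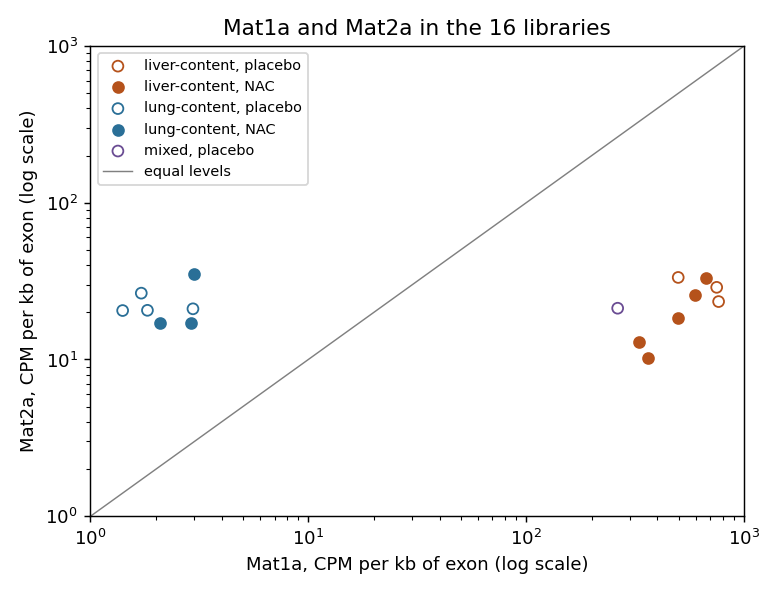
Mat1a against Mat2a in the 16 libraries, in TMM-scaled CPM per kb of exon on 2 log axes, with a line at equal levels. The 8 liver-content libraries and the mixed library lie below the line, with more Mat1a, and the 7 lung-content libraries lie above it.

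Gnmt and Ahcy use S-adenosylmethionine and clear its product. Gnmt (chromosome 17, 46725664 to 46729168), the glycine methyltransferase abundant in hepatocytes, ranged from 252 to 555 CPM (median 404) in liver-content and from 2.95 to 15.2 (median 9.33) in lung-content libraries. Ahcy (chromosome 2, 155059310 to 155074497) ranged from 639 to 1950 CPM (median 1114) and from 23.7 to 84.8 (median 58.5). Bhmt (chromosome 13, 93616675 to 93637961) had the widest gap of the 10, from 1062 to 2922 CPM (median 2396) in liver-content against 0.371 to 4.16 (median 1.25) in lung-content libraries, where it rested on 6 to 48 counts.

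The genes leading to cysteine, taurine and sulfide showed a gradient in the size of the gap. Cbs (chromosome 17, 31608894 to 31637238) had medians of 183 and 3.76 CPM in liver-content and lung-content libraries, and Cth (chromosome 3, 157894248 to 157925077) of 290 and 4.32. Cdo1 (chromosome 18, 46713193 to 46728395), the cysteine dioxygenase, had medians of 538 and 71.0 CPM, and Csad (chromosome 15, 102176999 to 102204724), the decarboxylase that follows it, of 223 and 29.5. Mpst (chromosome 15, 78406416 to 78414013) had the narrowest gap of the 9, at 82.6 against 31.3. The median ratio of liver-content to lung-content was 48.6 for Cbs, 67.01 for Cth, 7.58 for Cdo1, 7.57 for Csad and 2.64 for Mpst. Per kb of exon, the highest medians in liver-content libraries were those of Mat1a (546), Bhmt (416), Ahcy (397), Gnmt (335) and Cdo1 (327), whose ranges over libraries overlap. In lung-content libraries Cdo1 led at 43.2, followed by Ahcy at 20.8 and Mat2a at 20.6. Exons of Mat2a, Bhmt and Csad overlap those of Particl, Gm15622 and Zfp740 on the other strand, and whether the counting used the strand is not given in the sources used here.

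Spread within a content also differed between genes. Among liver-content libraries Mpst varied least, with a coefficient of variation of 7.22%, and Mat2a most, at 37.5%. In lung-content libraries Csad varied least at 13.04%, and Bhmt most at 84.2%, followed by Gnmt at 59.7% and Cbs at 59.2%.

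Of 38 other genes of the pathway, 18 had every liver-content library above every lung-content library, 4 the reverse, and 16 overlapped, beside 26.3% and 23.6% of all genes in the 2 directions. On raw CPM 15 were higher in liver-content libraries, 7 the reverse, beside 13% and 36.8%. Bhmt2, the paralog of Bhmt, had medians of 189 and 0.111 CPM, and Dmgdh, which oxidises the dimethylglycine that Bhmt forms, of 200 and 0.159. Ahcyl2, Slc6a6 (the taurine transporter), Inmt and Sms were those higher in lung-content libraries on the TMM scale. These names were chosen after their values were seen.

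Next, NAC was compared with placebo within each content. In lung-content libraries, Gnmt, Ahcy and Cbs rose with NAC by log2 fold changes (log2FC) of 1.71 (SE 0.26), 1.41 (SE 0.22) and 1.69 (SE 0.27), with adjusted p of 0.022, 0.0237 and 0.024 by edgeR's quasi-likelihood test over 14175 genes. No member passed as lower, and the other 7 did not pass in either direction. Among all genes 1.64% passed as higher and 0.931% as lower, and 3734 (26.3%) had an unadjusted p under 0.05 by the same test. The comparison rests on 3 pairs of libraries, those of live WT, live heterozygous and dead heterozygous pups, since lung-content libraries of dead null pups were placebo only. Per pair, each of the 3 genes was higher with NAC.

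Gnmt went from 3.02 CPM (placebo) to 10.04 (NAC) in live WT pups, from 2.95 to 9.33 in live heterozygous and from 4.58 to 15.2 in dead heterozygous pups, ratios of 3.33, 3.16 and 3.31. The 3 NAC libraries lay above all 3 placebo libraries of these groups. The share of all genes in that order was not counted, here or for Ahcy below. The dead null placebo library, at 13.7 CPM, lay among the NAC libraries.

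For Ahcy, the placebo and NAC libraries held 23.7 and 84.8 CPM in live WT pups, 26.5 and 67.6 in live heterozygous and 30.7 and 62.4 in dead heterozygous pups. The NAC libraries again lay above the placebo libraries of the same groups, and dead null placebo, at 58.5 CPM, lay just under them. Cbs had 2.23 and 7.02 CPM in live WT pups, 0.867 and 3.76 in live heterozygous pups and 2.03 and 5.51 in dead heterozygous pups, with 6.01 in dead null placebo. Cbs rested on 10 to 79 counts per lung-content library.

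The genes downstream of Cbs had smaller differences that did not pass. Cth had a log2FC of 0.96 (SE 0.25, adjusted p = 0.0737 by edgeR) and Cdo1 of 0.65 (SE 0.19, adjusted p = 0.0851). Mpst stood at 0.44 and Csad at -0.25. Mat1a stood at 0.69 and Mat2a at -0.04, while Bhmt, at 0.31 (SE 0.78), had ratios from 0.301 to 5.99 over the 3 pairs. Counting pairs alone, 7 of the 10 genes were higher with NAC in all 3 lung-content pairs, against 28.2% of all genes, and none was lower in all 3, against 31.2%.

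**Figure D3:**
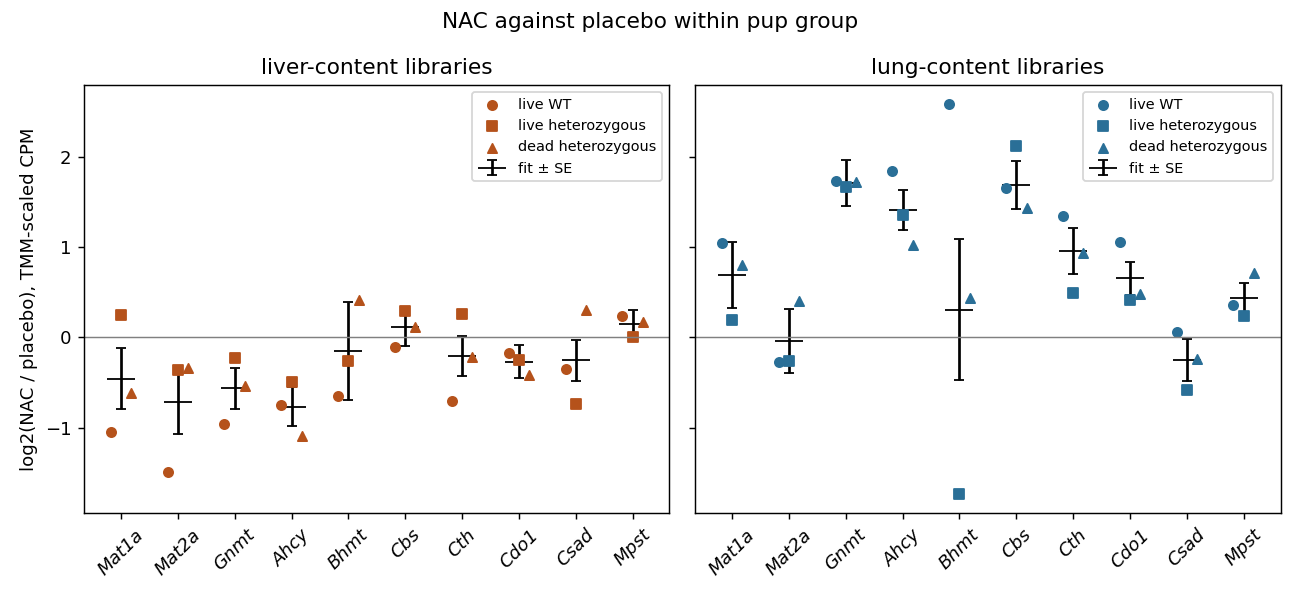
NAC over placebo within each pup group, as log2 of the ratio of TMM-scaled CPM, for liver-content (left) and lung-content libraries (right). Symbols are the 3 pairs, and black bars give the edgeR estimate ± SE. Gnmt, Ahcy and Cbs are above 0 in all 3 lung-content pairs.

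The result depended on single libraries and on the method. Leaving out any 1 of the 6 lung-content libraries of the 3 pairs left none of the 3 genes passing, as did leaving out the liver-content live heterozygous placebo library, and without the liver-content live heterozygous NAC library 1 passed. Without either of the dead null NAC libraries 5 members passed. The count over all genes moved as well, from 1 to 2933 with 1 library left out. With 1 library left out, adjusted p by edgeR ranged from 0.00297 to 0.216 for Gnmt, from 0.00635 to 0.217 for Ahcy and from 0.00361 to 0.217 for Cbs. DESeq2 called 5 of the 10 genes and 1472 of all genes, against 364 in edgeR. Counting the mixed library as lung-content left 0 members and 10 genes in all. The log2FC of Gnmt stayed between 1.44 and 1.73 over these alternatives, of Ahcy between 1.13 and 1.60 and of Cbs between 1.42 and 1.83.

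Other cell types were read from fixed marker lists in the same lung-content libraries, and none of their genes passed. The median log2FC with NAC was 0.83 for the 7 erythroid markers, 0.70 for the 8 hepatocyte markers and 0.51 for the 4 endothelial markers, against -0.03 over all genes. The summed hepatocyte markers ranged from 50.7 to 186 CPM with NAC and from 19.0 to 190 with placebo. The albumin counts there were scaled by the highest ratio of each gene to Alb among liver-content libraries. As liver RNA of that ratio they would bring up to 1.25 CPM of Gnmt, 2.81 of Ahcy and 0.436 of Cbs, on raw CPM. Over the 7 libraries this was 1.57 to 31.7% of the Gnmt level, 0.528 to 7.97% for Ahcy and 1.24 to 37.8% for Cbs. For Bhmt the same figure was 67.3 to 414% of its level, and for Mat1a 5.07 to 63.0%. In the mixed library it was 53.8% for Gnmt, 42.04% for Ahcy, 58.85% for Cbs and 34.1% for Mat1a, so it need not be an upper bound. The 4 endothelial markers summed to 1259 to 1441 CPM with NAC and 898 to 1226 with placebo, without overlap. How many genes separate in this way was not counted. Erythroid markers summed to 1011 to 1911 CPM with NAC and 822 to 1940 with placebo, and fibroblast markers to 1187 to 1613 and 1075 to 1526. Lung epithelium markers summed to 9849 to 16270 CPM with NAC and 12620 to 14300 with placebo. Among exocrine pancreas markers the sum was 6.13 to 12.1 CPM with NAC and 6.10 to 10.5 with placebo. Lymphoid and myeloid markers summed to 572 to 1441 CPM with NAC and 705 to 1170 with placebo, cardiac muscle markers to 106 to 360 and 151 to 312, and stomach and gut markers to 1.03 to 2.23 and 1.27 to 2.00. The part of these cell types in the result was not tested.

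Among the 38 other pathway genes, 36 were tested, and 1 was higher and 1 lower with NAC in lung-content libraries, beside the 1.64% and 0.931% of all genes. Gclc, the catalytic subunit of the enzyme that starts glutathione synthesis from cysteine, rose by 2.59 on the log2 scale (SE 0.36, adjusted p = 0.0191 by edgeR). In the live WT, live heterozygous and dead heterozygous pairs it went from 73.1 to 196, from 51.4 to 347 and from 73.7 to 877 CPM. Gamt, which methylates guanidinoacetate to creatine, fell by 1.26 on the log2 scale (SE 0.19, adjusted p = 0.0236 by edgeR), from 3.66 to 1.69, from 3.04 to 1.25 and from 5.001 to 1.90 CPM in the same order. Dead null placebo had 154 CPM of Gclc and 2.56 of Gamt. At 1.25 to 5.001 CPM over the lung-content libraries, Gamt rests on few counts. Both calls rested on single libraries. Gclc did not pass without any 1 of the 4 lung-content libraries of heterozygous pups or without the liver-content live heterozygous placebo library, and Gamt did not pass without any 1 of the 6 lung-content libraries of the pairs or either liver-content live heterozygous library. With 1 library left out, the log2FC of Gclc lay between 2.09 and 3.17, with adjusted p from 0.00389 to 0.216 by edgeR. That of Gamt lay between -1.35 and -1.17, with adjusted p from 0.00782 to 0.216 by edgeR. With the mixed library counted as lung-content neither passed, at 0.0678 and 0.069.

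In liver-content libraries no gene passed in this comparison, 0 of 14175 by edgeR, with 1054 at an unadjusted p under 0.05 and 55 called by DESeq2. The 10 members lay between a log2FC of -0.77 (Ahcy, SE 0.22) and 0.15 (Mpst, SE 0.16). Ahcy went from 1072 to 639, from 1156 to 818 and from 1950 to 916 CPM in the live WT, live heterozygous and dead heterozygous pairs. It was lower in all 3 pairs, as were Mat2a, Gnmt and Cdo1, 4 of the 10 against 17.6% of all genes. Only Mpst was higher in all 3 pairs, against 17.2% of all genes. Mat2a had a ratio of NAC to placebo of 0.356 in live WT pups, and 0.776 and 0.791 in the heterozygous pairs. Its log2FC was -0.71 (SE 0.36), and -0.34 without either of the live WT libraries, the least alike of the 3 pairs.

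The difference of the NAC effect between contents was tested in the same fit. No member passed, and 0.0847% of all genes did. Gnmt stood at -2.27 (SE 0.34) and Ahcy at -2.17 (SE 0.31) for liver-content minus lung-content, both with an adjusted p of 0.0504 by edgeR, and Cbs at -1.58 (SE 0.34, adjusted p = 0.0965 by edgeR). Keeping genes of low counts brought 2 members past the threshold, and DESeq2 4.

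For survival and genotype edgeR called no member in the fit of all 15 libraries. Tissue of live pups was taken at 24 h and of dead pups at death, within 1 h of birth for null pups. Survival, and genotype among dead pups, cannot be told apart from age. Dead minus live pups in lung-content libraries gave 0 genes by edgeR (557 at an unadjusted p under 0.05, and 42 by DESeq2). Gnmt stood at 1.42 (SE 0.24), Cbs at 1.13 (SE 0.26) and Cdo1 at 0.90 (SE 0.18), and DESeq2 called Gnmt and Cdo1. In liver-content libraries 0.00705% of genes passed, which was 1 gene, and 1709 genes, Ahcy among them, passed without the dead null NAC library labelled liver. The members ranged from -0.33 (Cbs) to 0.76 (Ahcy, SE 0.19), which DESeq2 called. The dead null side rests on 1 lung-content library, with placebo, and on 2 liver-content libraries, both with NAC. Live heterozygous minus live WT pups ranged from -0.18 (Cdo1) to 0.73 (Mat2a) in liver-content and from -1.07 (Cbs) to 1.36 (Bhmt) in lung-content libraries. Dead null minus dead heterozygous pups ranged from -0.15 (Mpst) to 0.70 (Gnmt) in liver-content and from -0.57 (Mat2a) to 1.81 (Bhmt) in lung-content libraries. In these 4 genotype comparisons edgeR called 0 genes, with 404, 189, 1879 and 844 at an unadjusted p under 0.05, and DESeq2 1, 29, 359 and 44. For dead null minus dead heterozygous pups of liver content, the third of these, 37 genes passed without the filter and 1188, Gnmt among them, without the dead null NAC library labelled lung. For the dead minus live difference between contents no member passed.

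By the labels the same genes gave large differences of opposite sign. Each label comparison sets 1 NAC against 1 placebo library by edgeR's exact test at the study's assumed biological coefficient of variation of 0.2, and a gene passed at an adjusted p under 0.05 with a log2FC of 1 or more in either direction. It compares those libraries, not the conditions. In the pairs labelled lung, 9 members fell in live WT pups (28.0% of all genes did) and 9 in live heterozygous pups (30.7%), while 9 rose in dead heterozygous (25%) and 8 in dead null pups (21.1%). In the pairs labelled liver, 9 rose in live WT pups (24.3%), 9 in live heterozygous pups (24.7%) and 8 in dead null pups (28.2%), and 9 fell in dead heterozygous pups (25.2%).

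The direction followed the content of the 2 libraries. Bhmt stood at -10.29 and -11.17 in the live WT and live heterozygous pairs labelled lung, whose NAC libraries were lung-content and placebo libraries liver-content, and at 12.14 in the dead heterozygous pair, where these were exchanged. Mat1a stood at -8.01, -7.90 and 8.19 in the same pairs. In the dead null pair labelled lung, whose placebo library was mixed, Bhmt stood at 1.28 and Mat1a at 0.32. Mat2a passed in none of the 8 pairs, with values from -0.998 to 0.65. In each of these pairs treatment and content are exchanged together and cannot be told apart.

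**Figure D4:**
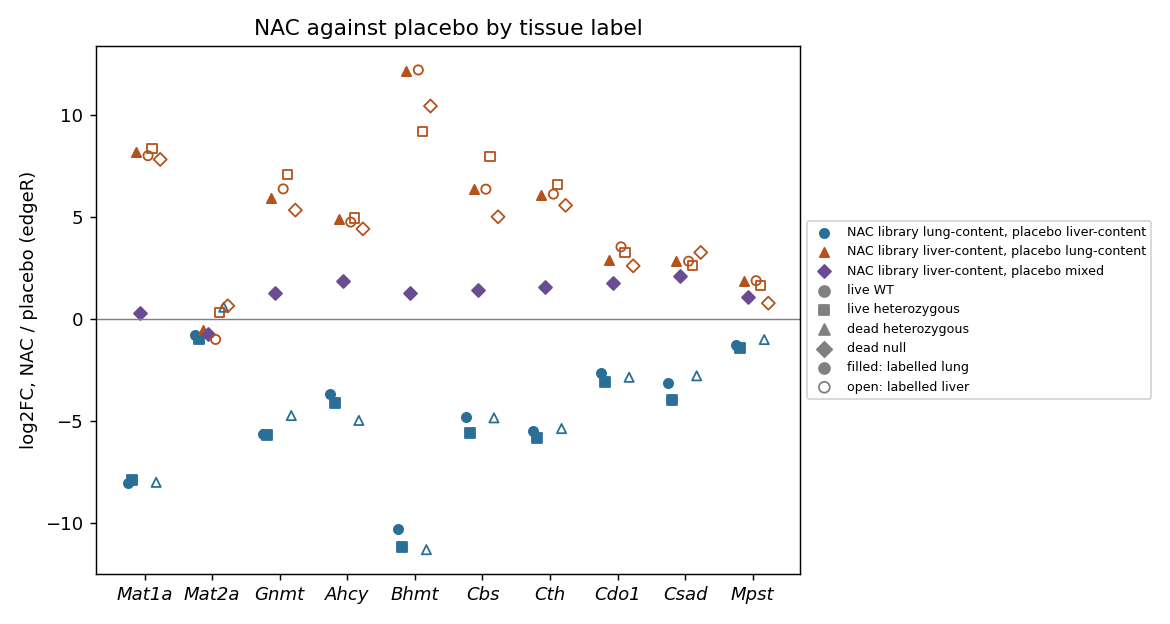
log2FC of NAC over placebo for each gene in the 8 pairs that share a tissue label, by pup group (symbol) and label (filled lung, open liver), coloured by the contents of the NAC and placebo libraries. All genes but Mat2a are below 0 where the NAC library is lung-content and above 0 where it is liver-content.

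Finally, the gene most like each member was sought among 9330 genes over the 8 liver-content libraries, by Pearson correlation of log2(CPM + 1). It was Rabgap1 for Mat1a (0.951), Mtx3 for Mat2a (0.986), Agpat6 for Gnmt (0.988), Mrps31 for Ahcy (0.980) and Gm10768 for Bhmt (0.993). It was Plxnb1 for Cbs (0.982), Coq10b for Cth (0.867), Psmd9 for Cdo1 (0.970), Ywhaq for Csad (0.960) and Haus8 for Mpst (0.976). With 8 libraries that share pup groups, these are descriptions of the libraries. In the 7 lung-content libraries, NAC and placebo together, Gnmt correlated at 0.919 with Mat1a, 0.904 with Cbs and 0.897 with Ahcy. It stood at 0.888 with Cdo1, 0.882 with Mpst, 0.863 with Cth and 0.201 with Mat2a. With Bhmt it stood at -0.023 and with Csad at -0.609. Gnmt, Ahcy and Cbs differed with NAC in these libraries, which enters their correlations. The share of all genes correlating as highly was not counted.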

How the data were processed

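Poly(A) RNA of lung and liver was sequenced by the authors from stranded libraries. Trimmed reads were aligned with the Omicsoft Sequence Aligner to mouse build GRCm38 (mm10), and R 4.0.3 with edgeR 3.30.3 are named in the submitters' notes. The deposited table gives an estimated count for each gene symbol and library, without normalization. Between 6.50 and 8.24% of values in a library were not whole, and the planned tests were written for counts, so values were rounded first. No library pair of one content agreed within counting noise.

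Levels are CPM scaled by TMM over 16 libraries. The content fit used edgeR 4.0.16 in R 4.3.3 on 15 libraries (the mixed one left out), with a mean of each pup group within content and NAC within content, 10 coefficients and 5 residual degrees of freedom, a filter at a mean of 1 CPM, and Benjamini-Hochberg adjusted p under 0.05. Each SE is the log2FC divided by the root of F. Alternatives were DESeq2 1.42.0, relative log expression factors, library size alone, no filter, coefficients of variation of 0.1 and 0.4, the mixed library counted as lung-content, and each library left out. Raw CPM for the levels by content was added after seeing the data. With 1 pooled library per group, p-values of the content fit measure the spread between libraries that these terms leave. That spread is how far the NAC effect differs between pup groups of a content, and the difference between the dead null NAC libraries of liver content. Those of the label pairs rest on the assumed coefficient of variation and measure no observed spread. Scripts were tested on simulated data.

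The rule for named genes takes the 10 members in every comparison, up to 3 pathway genes per list that passed, and for each member the most alike gene of at least 10 CPM. For survival, genotype and the label pairs members are given by counts or ranges with examples, and no pathway gene is named for the label pairs. Bhmt2, Dmgdh, Ahcyl2, Slc6a6, Inmt and Sms were named after their values were seen. Members and lists were chosen with earlier results of these data known. Of the markers Hba-a1 and Amy2a5 were not used, since their symbols occur on several entries. Positions come from GENCODE M21 and promoters from RefSeq, both on GRCm38. Python 3.11.15, pandas 2.3.3, numpy 2.4.6 and matplotlib 3.10.9 did the rest.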

Additional observations from a re-analysis of the deposited data

Results flagged for a closer look

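In the pairs labelled lung, 9 of the 10 genes were lower with NAC in both live groups and higher in both dead groups. The share of all genes with this joint pattern was not counted, so the pattern cannot be read as particular to these genes. Shares of all genes passing in each single pair are given with the label comparisons above. The difference between live and dead pups was not tested here. The live pairs set a lung-content NAC library against a liver-content placebo library, and the dead heterozygous pair the reverse, so that survival and content cannot be told apart in these pairs. No library stood apart from the others of its content in any of the 20 sets of values examined by Dixon's criterion, 10 genes in 2 contents.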

How the results depend on the processing

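No analysis paired by replicate was possible because the labels number no replicates, each label group holding 1 library. Lung-content and liver-content libraries of the same pup group and treatment may share pups, which the labels do not state. The fit treats them as independent, also for the difference of the NAC effect between contents. Pup group within content is a term of the fit, so NAC is compared within pup groups. For NAC in lung-content libraries, 3 members passed, 5 by DESeq2, 0 with the mixed library counted as lung-content, and 0 to 5 with 1 library left out. DESeq2 called 1 member in dead minus live pups of liver content and 2 of lung content, where edgeR called 0, and with 1 library left out 0 to 1 and 0 to 0. For the difference of the NAC effect, 2 members passed without the filter, 4 by DESeq2, and 0 to 3 with 1 library left out. Dead null minus dead heterozygous pups of liver content gave 0 to 1. In the dead null pair labelled lung, 8 members became 4 with library size alone and 0 at a coefficient of variation of 0.4. The count of all genes for that pair alone under these settings is not given here. With raw CPM, 8 members in place of 9 were separated by content. Directions turned with library size alone for Bhmt with NAC in lung content (-0.0020), for Mat1a in the dead null pair labelled lung (-0.36) and for Mat2a in the live heterozygous pair labelled liver (-0.35). With the mixed library counted, Bhmt (2.71) and Csad (0.14) turned for dead minus live pups of lung content, and Bhmt (-3.01) for the difference between contents. With 1 library left out, values that changed sign ranged, for NAC in liver content, from -0.45 to 0.0923 for Bhmt and -0.45 to 0.0364 for Cth, and, in lung content, from -0.26 to 0.0719 for Mat2a and -0.89 to 1.67 for Bhmt. For dead minus live pups they ranged, in liver content, from -0.17 to 0.52 for Mat1a, -0.31 to 0.36 for Mat2a, -0.12 to 0.27 for Gnmt and -0.39 to 0.14 for Csad, in lung content, from -1.58 to 0.71 for Bhmt and -0.28 to 0.0386 for Csad, and for the difference between contents from -1.01 to 1.28 for Bhmt. For live heterozygous minus live WT pups of lung content Bhmt ranged from -0.50 to 3.18. None of these members passed in edgeR, and the cause was not tested. Counts over all genes moved further. For NAC in lung content, 364 genes became 1 to 2933 with 1 library left out, and for the difference of the NAC effect 12 became 51 without the filter, 551 by DESeq2, 0 with the mixed library and 0 to 614 with 1 left out. At a coefficient of variation of 0.4 the label pairs kept 1859 to 4049 genes in place of 6041 to 8064. Bhmt and Cbs, and Gamt among the other pathway genes, rest on few counts in lung-content libraries, which limits their precision.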
